A study of Mus musculus with 6 samples.

Results

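Prostaglandins and leukotrienes are lipid signals that leukocytes make from arachidonic acid, and the transcripts of 10 enzymes and enzyme partners of these pathways were followed here in immune cells of the mouse brain after a stroke model. The 10 genes are Ptgs1, Ptgs2, Ptges, Ptges3, Hpgds, Tbxas1, Alox5, Alox5ap, Ltc4s and Lta4h, chosen by symbol among the 31053 genes of the files. All 10 were found, each as a single row. CD45+ leukocytes that excluded propidium iodide, a dye that enters dead cells, were sorted from C57BL/6 brains after perfusion with saline and a density gradient, and their RNA was counted as unique molecular identifiers (UMIs), tags that mark single RNA molecules, with droplet 3' sequencing. The stroke model was a filament block of the right middle cerebral artery (MCAO) for 60 min, ended by withdrawing the filament.

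The 6 libraries were Cd300a-fl/fl Lyz2-cre mice and Cd300a-fl/fl mice, each naive, 1 h and 3 h after MCAO, with 1 library a group made from 3 pooled brains. Both genotypes carry the floxed allele of Cd300a, an inhibitory receptor of myeloid cells, and Lyz2-cre adds a Cre recombinase driven from the lysozyme 2 locus, which is active in neutrophils, monocytes and many macrophages. The genotypes are written Lyz2-cre and fl/fl below. The labels differ on the earliest group, which the sample titles call naive and the design text gives as 0 h after reperfusion. The naive group had no sham operation in the labels, so surgery and ischemia cannot be told apart.

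Cyclooxygenases turn arachidonic acid into prostaglandin H2, the common precursor of prostaglandins and thromboxane. Ptgs1 (COX-1) is the constitutive form and Ptgs2 (COX-2) the form that inflammatory signals induce. Terminal synthases then make prostaglandin E2 (Ptges, Ptges3), prostaglandin D2 (Hpgds) or thromboxane A2 (Tbxas1). In the other branch, 5-lipoxygenase (Alox5) with its activating protein FLAP (Alox5ap) makes leukotriene A4, which Lta4h converts to leukotriene B4, an attractant of neutrophils, and Ltc4s to the cysteinyl leukotriene C4.

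Of 51005 barcodes, 47077 were used as cells, 6719 to 9611 a library, with a median of 3902 to 5225 UMIs a cell. Cells fell into 25 clusters, which were named from marker genes after the 10 enzymes had been left out of the genes used for clustering. Microglia-like cells made up 70.1% to 87.7% of a library (4743 to 7318 cells). Monocyte-like cells numbered 109 to 815 and neutrophil-like cells 150 to 1057 a library, and both classes took their largest shares at 3 h in each genotype (neutrophil-like cells 10.4% in Lyz2-cre and 15.6% in fl/fl mice, monocyte-like cells 8.48% and 7.57%). For neutrophil-like cells of Lyz2-cre mice the share was nearly the same at 1 h (10.2%), whereas in fl/fl mice it was 4.08% at 1 h. The targeted gene Cd300a stood at 9.86 to 15.9 CPM (UMIs per 1000000 UMIs of the class) in neutrophil-like cells of the Lyz2-cre libraries and at 128 to 256 CPM in those of the fl/fl libraries, at 88.2 to 228 against 181 to 465 CPM in monocyte-like cells, and at 137 to 171 against 172 to 212 CPM in microglia-like cells. The Lyz2-cre 1 h library stood apart, with 262 progenitor-like cells. In 20.15% of its microglia-like cells the UMIs of the neutrophil genes S100a8 and S100a9 came to at least 2 in sum, of either gene. This share was 0.596% to 8.81% in the other 5 libraries. Across libraries, 305 barcode sequences occurred more than once (0.602% of them).

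Ptgs2 and Ptges3 were higher at 3 h in the same 3 cell classes, whereas Ptgs1 was lower. Inside the largest neutrophil-like cluster Ptgs2 turned lower (log2 fold change -0.41, not passing) and the rise of Ptges3 did not pass. Inside the largest monocyte-like cluster the rise of Ptgs2 did not pass either. With no cells removed as doublets, the falls of Ptgs1 in monocyte-like and neutrophil-like cells did not pass. The sequences around the start sites of these genes are shown first. Each is 300 bases, 250 before and 50 after the RefSeq start, on the plus strand of GRCm38.p6: Ptgs2 at chr1:150099781-150100080, Ptges3 at chr10:128058732-128059031 and Ptgs1 at chr2:36230176-36230475. Capitals mark matches on either strand to a kappa B pattern (GGG, any 5 bases, then CC), to the core of the cAMP response element TGACG (read as CGTCA on the other strand), to a TATA box TATAAA and to a heat shock element GAANNTTC.
Ptgs2: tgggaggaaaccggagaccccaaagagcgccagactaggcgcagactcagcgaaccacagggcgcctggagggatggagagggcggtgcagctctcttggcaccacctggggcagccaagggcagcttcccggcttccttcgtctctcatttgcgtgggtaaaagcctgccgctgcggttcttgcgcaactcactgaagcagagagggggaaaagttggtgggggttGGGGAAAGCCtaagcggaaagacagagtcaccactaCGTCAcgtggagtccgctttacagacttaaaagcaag
Ptges3: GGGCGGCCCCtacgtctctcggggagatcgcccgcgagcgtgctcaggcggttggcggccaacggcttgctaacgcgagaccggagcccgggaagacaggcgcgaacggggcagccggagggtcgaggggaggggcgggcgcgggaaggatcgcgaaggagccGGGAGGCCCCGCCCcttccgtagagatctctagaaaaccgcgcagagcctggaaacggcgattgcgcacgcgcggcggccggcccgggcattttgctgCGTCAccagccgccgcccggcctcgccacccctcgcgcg
Ptgs1: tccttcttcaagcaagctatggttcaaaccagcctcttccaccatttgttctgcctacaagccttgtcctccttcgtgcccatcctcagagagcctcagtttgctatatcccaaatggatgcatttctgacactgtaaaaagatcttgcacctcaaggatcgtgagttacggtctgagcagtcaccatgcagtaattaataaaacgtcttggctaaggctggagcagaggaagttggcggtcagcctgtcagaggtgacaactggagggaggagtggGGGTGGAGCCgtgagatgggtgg

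The windows of Ptgs2 and Ptges3 each held 1 match to the CRE core, 14 and 12 bases after the start site, and that of Ptgs1 held none. Of 9 members with a window in the RefSeq table, these were the 2 with a CRE core, beside 20.8% of all 32851 promoter windows of the same length. That count is near the share over all windows, and the part of the CRE core in the time courses was not tested. The kappa B pattern matched once in Ptgs2, at position -23, and once in Ptgs1, at position 28. It matched 5 times in Ptges3, at 3 places that partly overlap each other and the GC boxes (GGGCGG). As 50.8% of all windows hold this short pattern, a match is common. TATA boxes were found in 1 of the 9 windows, that of Tbxas1, and in 13.6% of all windows. No heat shock element was found in these 9 windows, against 7.86% of all. In the Ptgs2 window the CRE core lies beside an E box, CACGTG, which shares 2 bases with it and occurs in 7.15% of all windows. Alox5ap is not in the table.

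The 2 cyclooxygenases were divided between cell classes. Ptgs1 was a transcript of microglia-like cells. Ptgs2 was highest in neutrophil-like cells, and in microglia-like cells it was near 0 in naive brains and rose at both times after MCAO.

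Ptgs1 (ENSMUSG00000047250, chr2:36230426-36252272, plus strand, 11 exons) stood in microglia-like cells of Lyz2-cre mice at 814 CPM in naive brains, 883 CPM at 1 h and 602 CPM at 3 h. In those of fl/fl mice it stood at 766, 825 and 492 CPM at the same times. The lowest levels in each genotype were those at 3 h, and the 3 h levels did not overlap the others. Border-associated macrophages, the macrophages of the meninges and perivascular spaces, came next at 75.6 to 359 CPM, below microglia-like cells with no overlap between the ranges. UMIs of Ptgs1 were found in 78.9% to 96.4% of microglia-like cells, against 2.05% to 5.94% of B-cell-like cells, which should lack the gene (median depths of 3904.5 to 5198.5 and 2878.5 to 3909 UMIs).

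Ptgs2 (ENSMUSG00000032487, chr1:150100031-150108227, plus strand, 10 exons) rose in microglia-like cells over time. In Lyz2-cre mice it stood at 0.656 CPM in naive brains, 2.21 CPM at 1 h and 30.1 CPM at 3 h, which are 20, 64 and 884 UMIs. In fl/fl mice it stood at 0.893, 4.64 and 54.4 CPM, which are 25, 141 and 1129 UMIs. The times did not overlap, and the fl/fl library was the higher of each pair. Even at 3 h a minority of cells held a UMI: 3.94% of microglia-like cells in Lyz2-cre mice (95% interval 3.50% to 4.41%, exact binomial, counting error only) and 7.78% in fl/fl mice (7.03% to 8.58%). B-cell-like cells of the same libraries had none, 0 of 146 and 0 of 122 cells, which by the same method allows a share of up to 2.49% and 2.98%. Cells with at least 2000 UMIs were also thinned to 2000 UMIs, and the others left out. In these thinned cells the microglia-like shares at 3 h were 2.79% in Lyz2-cre mice and 4.73% in fl/fl mice, against 0.0714% and 0.0923% in naive brains.

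Neutrophil-like cells had the highest Ptgs2 levels, 134, 122 and 219.6 CPM in Lyz2-cre mice (naive, 1 h, 3 h) and 217, 245 and 271 CPM in fl/fl mice. Monocyte-like cells held 24.5, 6.15 and 43.7 CPM in Lyz2-cre mice and 22.4, 8.05 and 78.3 CPM in fl/fl mice, below neutrophil-like cells without overlap. Both genotypes had their lowest monocyte-like level at 1 h and their highest at 3 h. The rare border-associated macrophages (51 to 141 cells a library) went the way of microglia, with 8.10, 8.91 and 97.8 CPM in Lyz2-cre mice and 5.24, 18.6 and 122 CPM in fl/fl mice, from 101 UMIs in all. The makeup of this class changed too: a cluster with Ptgs2 at 6.33 CPM over all libraries made up 12.7% of it at 3 h and 64.5% in naive brains in Lyz2-cre mice (3.64% and 69.8% in fl/fl mice), and a cluster with 47.9 CPM made up 28.6% and 0.709% (50.9% and 0% in fl/fl mice). Conventional dendritic cells held 16.0 to 39.4 CPM, with the highest level in the fl/fl naive library. By source, microglia-like cells gave 6.41%, 9.76% and 48.2% of the Ptgs2 UMIs of the Lyz2-cre libraries and 11.8%, 35.8% and 45.0% of those of the fl/fl libraries, while neutrophil-like cells gave 70.2%, 83.1% and 32.8%, and 64.6%, 58.9% and 36.6%.

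**Figure D1:**
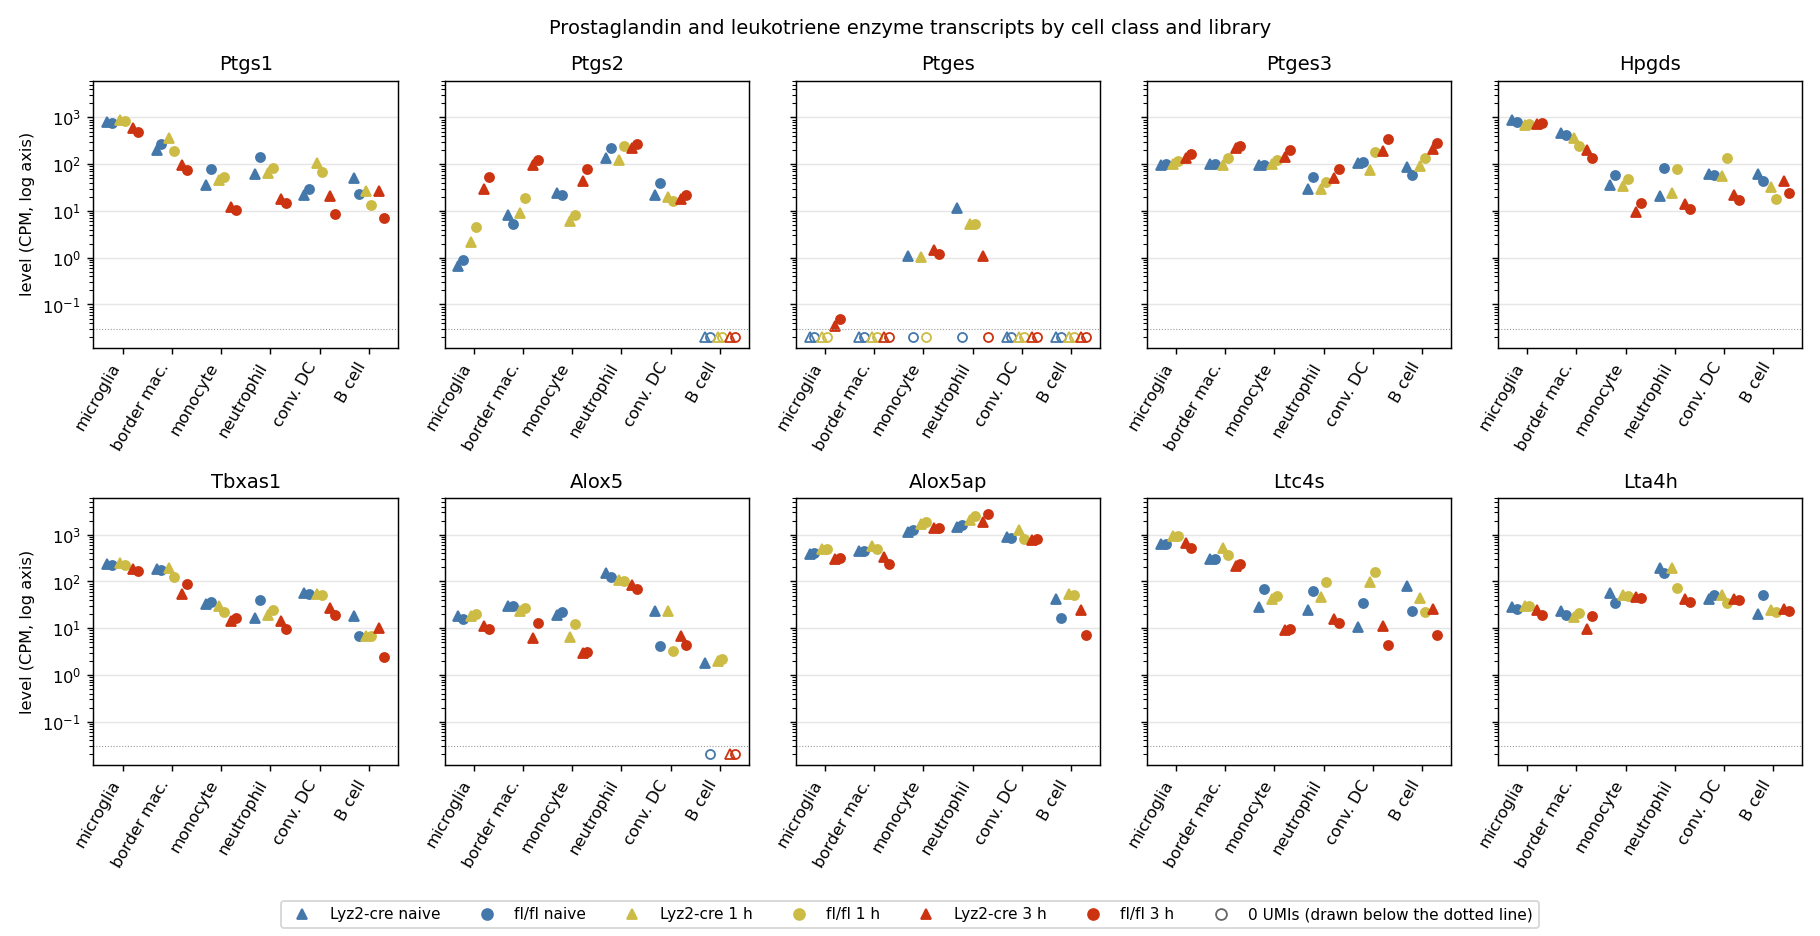
Level of each enzyme transcript (CPM, log axis) in 6 cell classes, with 1 point a library (triangles Lyz2-cre, circles fl/fl; blue naive, yellow 1 h, red 3 h; open points hold 0 UMIs). Ptgs1, Hpgds, Tbxas1 and Ltc4s are highest in microglia-like cells, Ptgs2, Alox5 and Alox5ap in neutrophil-like cells, and Ptgs2 in microglia-like cells runs between 0.656 and 54.4 CPM.

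Changes with time were tested on the UMIs summed over each class in each library with edgeR's quasi-likelihood test, with genotype and time as additive terms, so that the 2 libraries of a time stand in for replicates. Adjusted p-values (Benjamini-Hochberg) cover every gene tested in the class, and a gene counts as changed where its adjusted p is under 0.05. They measure the spread between these pooled libraries that genotype and time leave, with 2 residual degrees of freedom. Brains could be compared as pools alone.

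In microglia-like cells at 1 h against naive, 3 of the 9 members tested rose, where 26.8% of 12811 genes changed (14% higher and 12.8% lower), and none fell (Ptges was too low to test). Ptgs2 rose by 2.21 ± 0.20 (log2 fold change ± SE, adjusted p = 9.45e-05), which is 4.63-fold. Ltc4s rose by 0.72 ± 0.09 (adjusted p = 0.000798). Alox5ap rose by 0.40 ± 0.08 (adjusted p = 0.00821), a call that ended without the Lyz2-cre naive library (0.36, adjusted p = 0.122), without the fl/fl naive library (0.44, 0.0812) and without the Lyz2-cre 1 h library (0.32, 0.106). The members' median log2 fold change was 0.28, beside -0.01 over all genes tested.

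At 3 h against naive, 6 of 9 members changed in microglia-like cells, 2 of them higher and 4 lower, where 47.6% of all genes did (24.4% higher and 23.2% lower). Ptgs2 rose by 5.83 ± 0.16 (56.9-fold, adjusted p = 4.27e-08) with means of 42.3 CPM at 3 h and 0.775 CPM in naive brains. Ptges3 rose by 0.67 ± 0.09 (adjusted p = 0.000299). Ptgs1 fell by 0.46 on the log2 scale, to 0.729 of its naive level (SE 0.09, adjusted p = 0.00219), Alox5 fell by 0.62 (SE 0.12, 0.00237), Tbxas1 fell by 0.31 (SE 0.08, 0.00925) and Alox5ap fell by 0.31 (SE 0.08, 0.0138). Without the fl/fl naive library the calls for Ptgs1 (-0.44, adjusted p = 0.0549), Tbxas1 (-0.31, 0.0763) and Alox5ap (-0.31, 0.118) ended, and without the Lyz2-cre naive library that for Alox5ap (-0.38, 0.0531). Hpgds (-0.10, adjusted p = 0.383), Ltc4s (-0.02, 0.857) and Lta4h (-0.21, 0.0996) did not pass. The members' median was -0.21, beside -0.02 over all genes.

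From 1 h to 3 h, 8 of 9 members changed in microglia-like cells, beside 47.4% of all genes (25.3% higher and 22.1% lower), and 6 of these 8 were lower at 3 h. Ptgs2 rose further by 3.62 ± 0.13 (adjusted p = 4.18e-07) and Ptges3 by 0.42 ± 0.09 (0.00363). Alox5 fell by 0.92, Ltc4s by 0.74, Alox5ap by 0.70, Ptgs1 by 0.67, Tbxas1 by 0.49 and Lta4h by 0.49 (adjusted p between 0.000199 and 0.00263). The call for Ptges3 ended without the Lyz2-cre 1 h library (0.41, adjusted p = 0.0522) and that for Lta4h without the fl/fl 1 h library (-0.42, 0.0559). Ltc4s, higher at 1 h than in naive brains, was thus back near its naive level at 3 h, at 651 CPM in Lyz2-cre mice and 521 CPM in fl/fl mice.

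**Figure D2:**
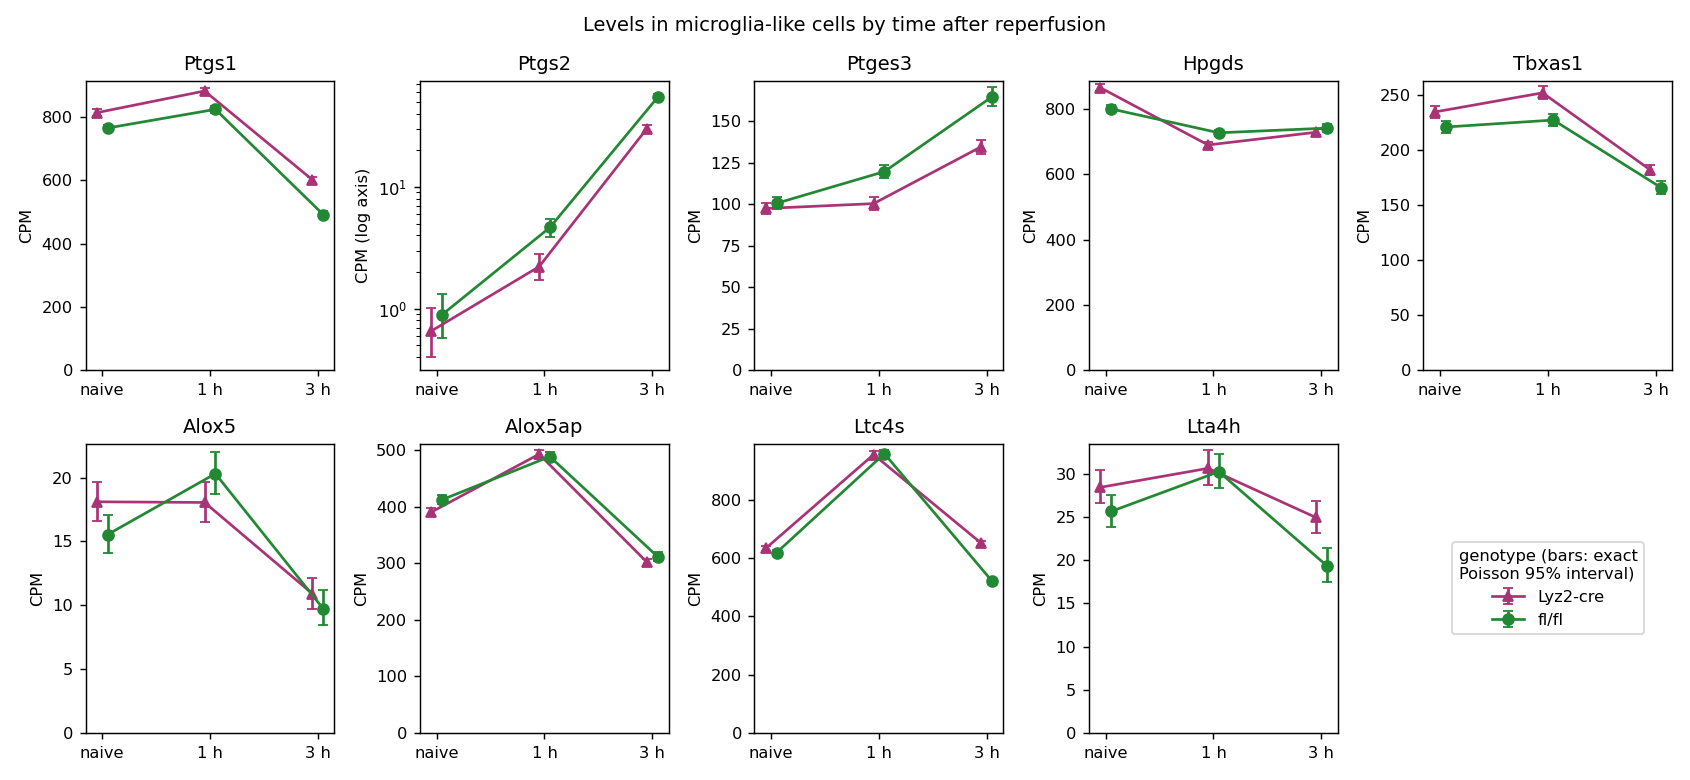
Levels of 9 enzyme transcripts in microglia-like cells (CPM; Ptgs2 on a log axis) in naive brains and 1 h and 3 h after MCAO, for Lyz2-cre (triangles) and fl/fl mice (circles), 1 library a point; bars are exact Poisson 95% intervals of the summed UMIs and cover counting error only. Ptgs2 climbs to 30.1 CPM in Lyz2-cre and 54.4 CPM in fl/fl mice at 3 h, Ltc4s peaks at 1 h at 956 and 959 CPM, and Ptgs1, Tbxas1, Alox5 and Alox5ap are lowest at 3 h.

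Within microglia-like cells the Ptgs2 UMIs of 3 h lay in few clusters. A cluster led by Gdf15, Pmp22 and Ccl3 (the gene of a chemokine) held Ptgs2 at 76.1 CPM in Lyz2-cre mice and 113 CPM in fl/fl mice. One led by Rcan1, Ccl12 and Gpr84 held 74.1 and 96.9 CPM. Together they gave 245 and 501 of the 884 Ptgs2 UMIs of the Lyz2-cre 3 h library and 624 and 338 of the 1129 UMIs of the fl/fl 3 h library. A cluster led by the heat shock genes Hspa1a and Hspb1 held 28.6 CPM in Lyz2-cre and 31.9 CPM in fl/fl mice, and one led by Sox4 held 6.47 and 17.7 CPM. A small second cluster led by Rcan1 (121 and 72 cells) held 15.4 CPM in Lyz2-cre and 100.6 CPM in fl/fl mice, from 7 and 29 UMIs. The remaining clusters stood between 0 and 8.37 CPM, and the one led by Csmd3 and Plxdc2 was at 0.947 and 0.471 CPM although it held 11.4% and 14.9% of the microglia-like cells of these libraries. In the Gdf15 cluster at 3 h, Ltc4s was at 441 CPM in Lyz2-cre and 311 CPM in fl/fl mice, below the class as a whole. The clusters were built from the same cells, so these values are a description.

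**Figure D3:**
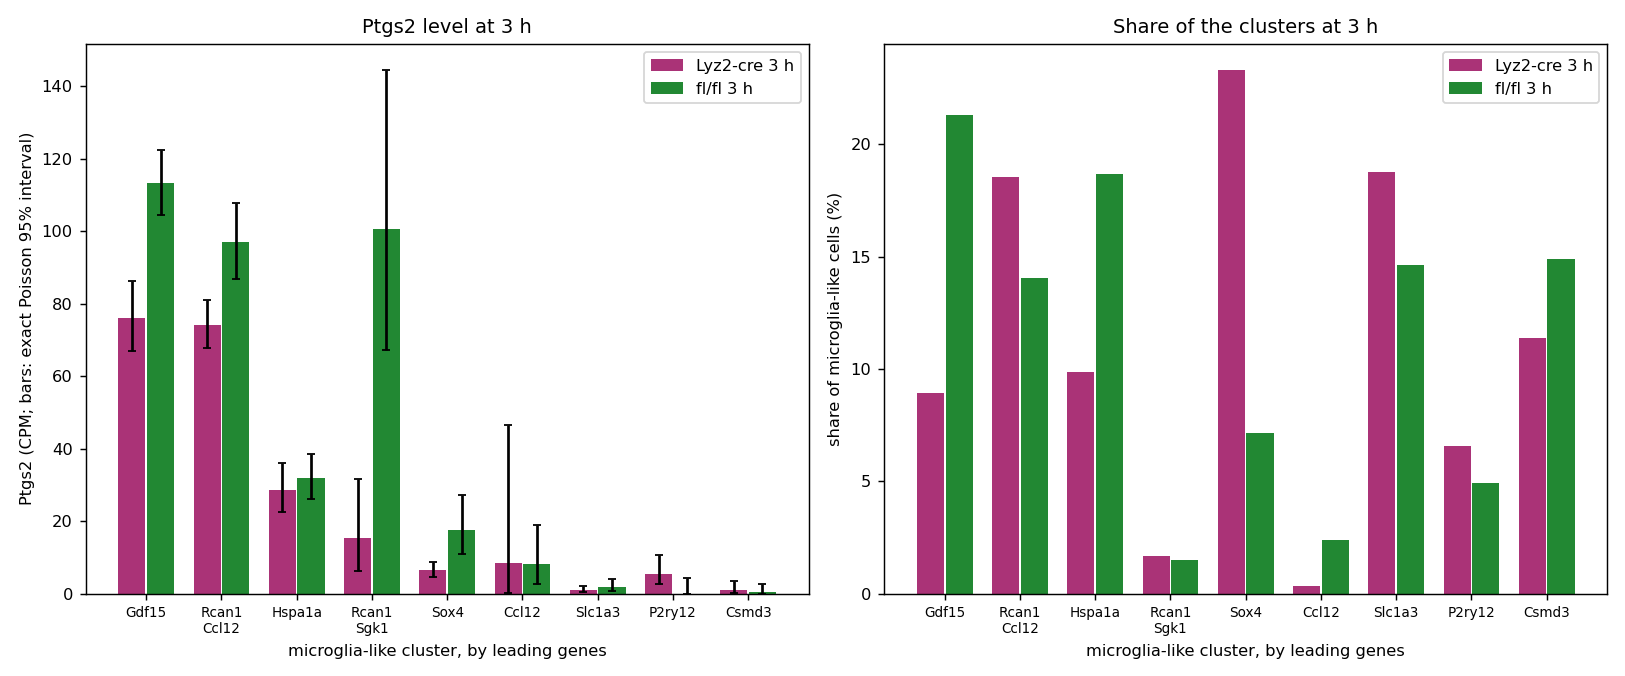
Ptgs2 level (left, CPM, bars exact Poisson 95% intervals) and share of microglia-like cells (right, %) in 9 microglia-like clusters at 3 h, named by leading genes, in Lyz2-cre (purple) and fl/fl mice (green), 1 library each. The Gdf15 cluster holds 113 CPM and 21.3% of the class in fl/fl mice against 76.1 CPM and 8.92% in Lyz2-cre mice.

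Between genotypes, 1 of 9 members differed in microglia-like cells, where 0.468% of genes did (0.0468% higher and 0.422% lower in Lyz2-cre mice). Over the 3 times together Ptgs2 was lower in Lyz2-cre than in fl/fl mice, by a log2 fold change of -0.94 ± 0.12 (0.52 of the fl/fl level, edgeR adjusted p = 0.00994). Its level was the lower at each time, though in naive brains that rested on 20 against 25 UMIs. The call ended without the Lyz2-cre naive library (-0.9997, adjusted p = 0.0548), the fl/fl naive library (-1.0004, 0.0611) or the fl/fl 1 h library (-0.89, 0.054). Beside it, the microglia-like cells of the genotypes were spread differently over clusters: at 3 h the Gdf15 cluster held 8.92% of them in Lyz2-cre and 21.3% in fl/fl mice, and the Sox4 cluster 23.3% and 7.17%. Lyz2 itself, at the locus that carries Cre, was at 0.328 to 0.648 CPM in microglia-like cells of Lyz2-cre mice and at 194 to 216 CPM in those of fl/fl mice. The part of these shares in the difference was not tested. Ptges3 was at -0.25 ± 0.07 (adjusted p = 0.2601). In monocyte-like cells 0 of 9 members and in neutrophil-like cells 0 of 10 differed between genotypes with edgeR (backgrounds 0.0671%, with 0.0112% higher and 0.0559% lower, and 0.026%, with 0% higher and 0.026% lower), 4 and 4 had an unadjusted p under 0.05, and DESeq2 called 0 and 0. Ptgs2 was at -0.63 ± 0.20 (adjusted p = 0.920) in monocyte-like cells, and its value for neutrophil-like cells was -0.53 ± 0.18 (0.892).

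Among the prostaglandin synthases, transcripts of Ptges3 were found in every class and those of Ptges were few and lay mostly in neutrophil-like and monocyte-like cells, while Hpgds and Tbxas1 belonged to the brain's macrophages.

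Ptges3 (ENSMUSG00000071072, chr10:128058954-128077272, plus strand, 8 exons), also known as the Hsp90 co-chaperone p23, was at 97.5, 100.4 and 135 CPM in microglia-like cells of Lyz2-cre mice (naive, 1 h, 3 h) and at 101, 119.7 and 165 CPM in those of fl/fl mice. In monocyte-like cells it was at 95.1, 98.9 and 145 CPM in Lyz2-cre and at 94.4, 121 and 197 CPM in fl/fl mice. Both classes had their highest levels at 3 h in both genotypes. Border-associated macrophages held 95.01 to 248 CPM and conventional dendritic cells 76.9 to 354 CPM, again with the 3 h libraries highest in each genotype. Neutrophil-like cells had the lowest levels (28.8 to 78.3 CPM), below monocyte-like cells with no overlap, and the other classes did not separate from each other. In the edgeR fit of levels the log2 difference of microglia-like over neutrophil-like cells was 0.24 and did not pass.

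Ptges (ENSMUSG00000050737, chr2:30889471-30929863, minus strand, 3 exons), the inducible synthase of prostaglandin E2, gave 50 UMIs in neutrophil-like cells of the 6 libraries. They were 19, 23 and 3 UMIs in Lyz2-cre mice (naive, 1 h, 3 h) and 0, 5 and 0 UMIs in fl/fl mice. Of these, 47 lay in 1 neutrophil-like cluster, led by Retnlg, Mmp9 and Ltf. Monocyte-like cells had 2, 2 and 10 UMIs in Lyz2-cre mice and 0, 0 and 6 in fl/fl mice, and all microglia-like cells together had 2. At 3 h monocyte-like cells held 10 of the 14 Ptges UMIs of the Lyz2-cre library and 6 of the 13 of the fl/fl library. The gene overlaps the pseudogene Gm13400 on the same strand. In neutrophil-like cells at 3 h against naive the fit gave -3.29 ± 1.05 (adjusted p = 0.0371), which turned to 2.93 (0.740) without the Lyz2-cre naive library.

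Hpgds (ENSMUSG00000029919, chr6:65117293-65144908, minus strand, 6 exons), which makes prostaglandin D2 in hematopoietic cells, was at 866, 690.1 and 729 CPM in microglia-like cells of Lyz2-cre mice and at 801, 727 and 742 CPM in those of fl/fl mice. It did not change with time in this class at the threshold used. Border-associated macrophages held 461, 362 and 205 CPM in Lyz2-cre and 415, 247 and 135 CPM in fl/fl mice, lower at each later time and below microglia-like cells without overlap. Among the clusters whose shares are given for Ptgs2, Hpgds stood at 337 CPM in the one common in naive brains. It stood at 119 CPM in the one nearly absent there. The remaining cluster of the class, led by Pf4, held the most, 494 CPM. Its share of the class was 34.8% in naive brains and 58.7% at 3 h in Lyz2-cre mice (30.2% and 45.5% in fl/fl mice). The part of these clusters in the order of the times was not tested. No other class came above 142 CPM in any library.

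Tbxas1 (ENSMUSG00000029925, chr6:38875404-39084585, plus strand, 13 exons; it overlaps Hipk2 on the other strand) was at 235, 252 and 182 CPM in microglia-like cells of Lyz2-cre mice and at 221, 227 and 166 CPM in those of fl/fl mice. Border-associated macrophages were lower in each of the 6 libraries, at 53.6 to 196 CPM, though the ranges overlap. Microglia-like cells held 94.6% to 98.2% of the Tbxas1 UMIs of a library, and 96.6% to 98.8% of those of Ptgs1, Hpgds and Ltc4s.

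In the leukotriene branch the enzymes divided by class. Alox5, Alox5ap and Lta4h, the set that leads to leukotriene B4, were higher in neutrophil-like than in microglia-like cells as whole classes. Ltc4s was higher in microglia-like cells. For Lta4h the class level came from the neutrophil-like cluster led by Retnlg, Mmp9 and Ltf (282 CPM over all libraries). The largest neutrophil-like cluster held Lta4h at 11.6 CPM, against 19.4 to 30.6 CPM in microglia-like cells. In the edgeR fit of that cluster the levels did not differ at the threshold used (log2 0.071 for microglia-like over neutrophil-like cells, adjusted p = 0.902).

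Alox5 (ENSMUSG00000025701, chr6:116410077-116461178, minus strand, 14 exons) was at 151, 106 and 82.6 CPM in neutrophil-like cells of Lyz2-cre mice (naive, 1 h, 3 h) and at 124, 102 and 70.3 CPM in those of fl/fl mice, lower at each later time. The fit at 3 h against naive gave -0.56 ± 0.23 (adjusted p = 0.0868). No other class came near these levels: border-associated macrophages held 6.31 to 30.4 CPM and microglia-like cells 9.74 to 20.3 CPM. Monocyte-like cells were at 18.9, 6.66 and 3.02 CPM in Lyz2-cre and at 22.4, 12.52 and 3.14 CPM in fl/fl mice. Within them the gene was a transcript of the cluster led by Ace, Ear2 and Treml4, at 12.8 to 41.0 CPM there, against 1.36 to 8.64 CPM in the cluster led by Saa3, Vcan and Plac8.

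Alox5ap (ENSMUSG00000060063, chr5:149264767-149288153, plus strand, 5 exons) was at 1462, 2084 and 1857 CPM in neutrophil-like cells of Lyz2-cre mice and at 1623, 2523 and 2768 CPM in those of fl/fl mice. Monocyte-like cells followed with 1156, 1718 and 1390.0 CPM in Lyz2-cre and 1255, 1874 and 1394 CPM in fl/fl mice, lower than neutrophil-like cells in each of the 6 libraries. Microglia-like cells were at 390.2, 493 and 302 CPM in Lyz2-cre and at 412, 488 and 311 CPM in fl/fl mice. The lowest naive levels of both myeloid blood classes and the 1 h peak in microglia-like and monocyte-like cells were shared by both genotypes. B-cell-like cells held 7.17 to 54.6 CPM.

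Ltc4s (ENSMUSG00000020377, chr11:50236461-50238616, minus strand, 5 exons) was at 634, 956 and 651 CPM in microglia-like cells of Lyz2-cre mice and at 619, 959 and 521 CPM in those of fl/fl mice. The 1 h libraries stood above all others. Border-associated macrophages had the same order in both genotypes, with 308, 526 and 218 CPM in Lyz2-cre and 308, 369 and 237 CPM in fl/fl mice, and were lower than microglia-like cells in each library.

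Lta4h (ENSMUSG00000015889, chr10:93453411-93484875, plus strand, 19 exons) was at 192, 196 and 42.0 CPM in neutrophil-like cells of Lyz2-cre mice and at 155, 71.9 and 37.2 CPM in those of fl/fl mice. Both 3 h libraries were below the other 4. Progenitor-like cells held 78.1 to 259 CPM in the 4 libraries with at least 20 such cells, NK-cell-like cells 62.6 to 131 CPM and monocyte-like cells 34.8 to 56.2 CPM, and these ranges overlap. Microglia-like cells held 19.4 to 30.6 CPM, a range that overlaps that of B-cell-like cells (20.3 to 50.6 CPM).

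The level in 2 classes was compared with the library as a block, so that each library gave both values. Of 10 members, 8 differed between microglia-like and monocyte-like cells, beside 70.3% of genes (40.3% higher in microglia-like cells and 30% lower). Hpgds (4.54 ± 0.34), Ltc4s (4.502 ± 0.38), Ptgs1 (4.32 ± 0.31) and Tbxas1 (2.93 ± 0.13) were higher in microglia-like cells, and Ptges (-5.53 ± 0.81), Alox5ap (-2.10 ± 0.13), Lta4h (-1.08 ± 0.13) and Ptges3 (-0.26 ± 0.10) lower. Ptgs2 (-2.01 ± 0.79, adjusted p = 0.0633) and Alox5 (0.61 ± 0.29, 0.0822) did not pass. Against neutrophil-like cells 9 of 10 differed, beside 74.5% of genes (44.7% higher and 29.8% lower). The same 4 genes were higher in microglia-like cells (2.36 to 3.58). Ptges, Ptgs2 (-6.42 ± 0.77), Alox5 (-3.94 ± 0.19), Alox5ap (-3.49 ± 0.26) and Lta4h (-3.00 ± 0.29) were lower there. Ptges3 (0.24) did not pass. Between monocyte-like and neutrophil-like cells all 9 members tested differed, beside 69% of genes (37.8% higher and 31.2% lower), and Ptges3 (0.56 ± 0.15) was the one higher in monocyte-like cells. In the largest neutrophil-like cluster alone the sign for Lta4h turned, to 0.071 for microglia-like over neutrophil-like cells and 1.14 for monocyte-like over neutrophil-like cells (adjusted p = 0.902 and 0.00015). For Hpgds and Tbxas1 the difference between the blood-derived classes depended on edgeR's scaling factors. With them the values for monocyte-like over neutrophil-like cells were -0.87 and -0.51. Without them the values were 0.0063 and 0.38 and did not pass (edgeR adjusted p = 0.981 and 0.119).

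In monocyte-like cells at 1 h, 2 of 9 members changed, beside 2.25% of 8941 genes (1.28% higher and 0.973% lower). Alox5ap rose by 0.64 ± 0.10 (edgeR adjusted p = 0.0124) and Ptgs2 fell by 1.74 (SE 0.37, adjusted p = 0.0421). The fall of Ptgs2 rested on 12 UMIs in Lyz2-cre and 9 in fl/fl mice at 1 h, against 44 and 18 in naive brains. It did not pass without the Lyz2-cre naive library (-1.19, adjusted p = 0.320), the fl/fl 1 h library (-1.61, 0.219) or the Lyz2-cre 1 h library (-1.90, 0.223). The call for Alox5ap ended without the same 3 libraries (adjusted p = 0.0654, 0.0876 and 0.0837).

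At 3 h against naive, 8 of 9 members changed in monocyte-like cells, 3 higher and 5 lower, beside 27.9% of genes (14.7% higher and 13.2% lower). Ptgs2 rose by 1.43 ± 0.23 (adjusted p = 0.00107), Ptges3 by 1.01 ± 0.15 (0.000623) and Alox5ap by 0.41 ± 0.10 (0.0135). Alox5 fell by 2.52, Ptgs1 fell by 1.999, Ltc4s fell by 2.01, Hpgds fell by 1.76 and Tbxas1 fell by 0.94 (adjusted p between 0.000115 and 0.0109), and Lta4h did not pass (0.15, 0.620). The share of the Saa3 cluster in the class moved with these results, at 33.2%, 47.3% and 82.6% in Lyz2-cre mice (naive, 1 h, 3 h) and 45.0%, 46.9% and 79.9% in fl/fl mice. Inside that cluster Ptgs2 was at 1.32 (adjusted p = 0.228) and Alox5ap at 0.11 (0.580). The call for Alox5ap also ended without any 1 of the Lyz2-cre 3 h (adjusted p = 0.227), fl/fl 3 h (0.0955) and Lyz2-cre naive (0.0811) libraries, and that for Tbxas1 without the fl/fl naive (0.0585) or Lyz2-cre 3 h library (0.143).

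In neutrophil-like cells 0 of 10 members passed at 1 h with edgeR (0.987% of 7699 genes did, 0.961% higher and 0.026% lower), 2 had an unadjusted p under 0.05, Ltc4s and Alox5ap. At 3 h against naive 8 of 10 passed, 3 higher and 5 lower, beside 29.7% of genes (18.1% higher and 11.6% lower). Alox5ap (0.87 ± 0.28, adjusted p = 0.0349), Ptges3 (0.98 ± 0.27, 0.0191) and Ptgs2 (0.81 ± 0.22, 0.0162) were higher, and Ptgs1 (-2.22 ± 0.32, 0.000484), Lta4h (-1.79 ± 0.38, 0.00719), Hpgds (-1.47 ± 0.44, 0.0332), Ltc4s (-1.18 ± 0.35, 0.0264) and Ptges lower. The class changed its makeup at the same time. Of its clusters, both led by Retnlg, the one also led by Mmp9 and Ltf (the Ltf cluster) held 49.8%, 41.1% and 3.01% of it in Lyz2-cre mice (naive, 1 h, 3 h) and 37.3%, 13.1% and 2.84% in fl/fl mice. Lta4h stood at 203 to 352 CPM in that cluster and at 9.05 to 15.8 CPM in the largest neutrophil-like cluster, and the 3 h level was no lower than the naive level in either genotype's Ltf cluster (352 against 258 CPM in Lyz2-cre, 339 against 259 CPM in fl/fl mice). Ptgs2 had the opposite place, at 239 to 515 CPM in the largest cluster and 2.73 to 58.7 CPM in the Ltf cluster. Inside the largest cluster its change at 3 h turned to -0.41 (adjusted p = 0.263), with 239 against 439.5 CPM in Lyz2-cre and 291 against 515 CPM in fl/fl mice, and that of Lta4h to 0.17 (0.861). The calls for Ptges3 (0.41, 0.395), Alox5ap (0.73, 0.0738) and Hpgds (-2.01, 0.146) also ended inside that cluster.

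The calls in neutrophil-like cells at 3 h rested on few naive cells (305 in Lyz2-cre and 150 in fl/fl mice). Without the fl/fl naive library Ptgs2 (0.82, adjusted p = 0.219), Alox5ap (0.72, 0.414), Hpgds (-0.83, 0.345), Ltc4s (-0.74, 0.337) and Lta4h (-1.54, 0.0677) did not pass. Without the Lyz2-cre naive library Ptgs2 (0.88, 0.169) and Alox5ap (1.10, 0.157) did not, and Ptges3 did not without either. Without the fl/fl 3 h library Alox5ap (0.47, 0.288), Hpgds (-0.61, 0.284) and Ltc4s (-0.63, 0.234) did not.

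The 3 h libraries were also set against those of 1 h in the same fits. In monocyte-like cells 6 of 9 members changed, 2 higher and 4 lower, beside 20.2% of genes (11.3% higher and 8.96% lower). Ptgs2 was 9.01-fold higher at 3 h than at 1 h there (3.17 ± 0.29, adjusted p = 6.03e-05), and Ptges3 rose by 0.76 ± 0.15 (0.00452). Ltc4s fell by 2.16, Ptgs1 by 1.98, Hpgds by 1.63 and Alox5 by 1.41 (adjusted p between 0.000426 and 0.0295). In neutrophil-like cells 6 of 10 changed, 2 higher and 4 lower, beside 26.1% (15.4% higher and 10.7% lower). Ptges3 rose by 0.94 ± 0.26 (0.0199) and Ptgs2 by 0.65 ± 0.21 (0.0427), while Ltc4s fell by 2.06, Ptgs1 by 2.02, Hpgds by 1.67 and Lta4h by 1.54 (adjusted p between 0.00126 and 0.0175). In the largest cluster of neutrophil-like cells Ptgs2 turned to -0.18 and Lta4h to 0.18. The calls for Ptges3 (0.66, edgeR adjusted p = 0.150) and Hpgds (-1.77, 0.174) ended there. In the largest monocyte-like cluster the rise of Ptgs2 did not pass (2.72, adjusted p = 0.0567). Its 1 h level in the class rested on 12 UMIs in Lyz2-cre and 9 in fl/fl mice. Hpgds turned to 0.20 in neutrophil-like cells where no doublets were removed.

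**Figure D4:**
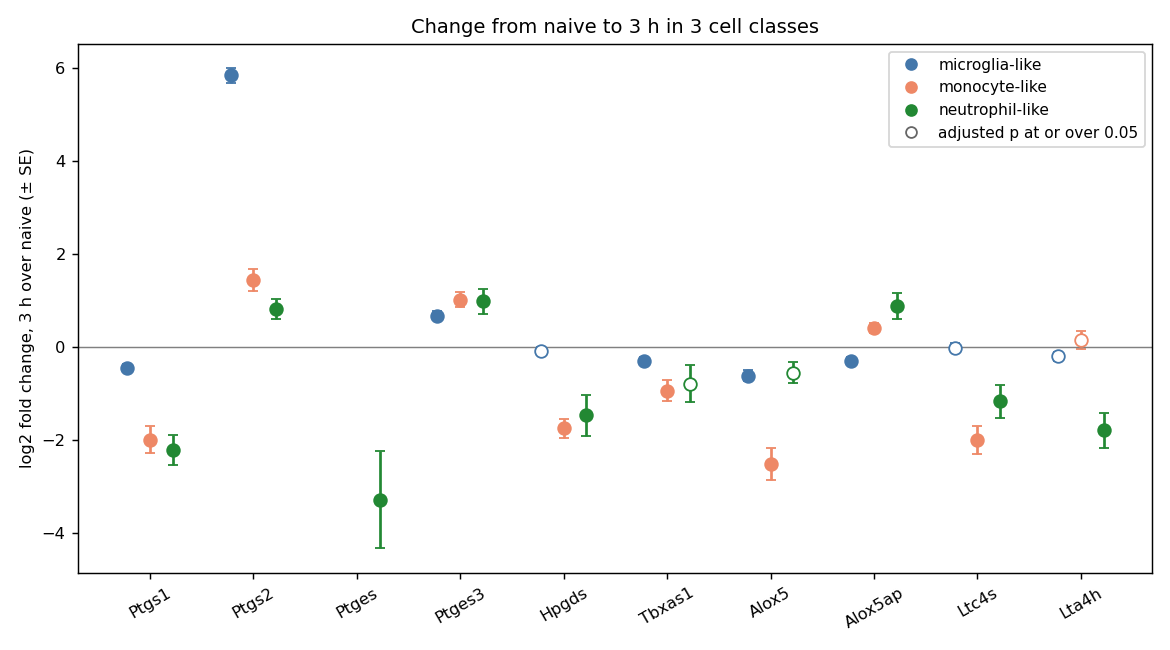
Log2 fold change at 3 h over naive (points, bars ± SE, edgeR) of the 10 enzyme transcripts in microglia-like (blue), monocyte-like (orange) and neutrophil-like cells (green); open points have an adjusted p at or over 0.05, and Ptges was tested in neutrophil-like cells alone. Ptgs2 stands at 5.83 in microglia-like cells, against 1.43 (monocyte-like) and 0.81 (neutrophil-like).

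Ptgs1, Hpgds and Ltc4s in blood-derived classes have to be read beside the microglial genes counted there. In monocyte-like cells 12 microglia markers summed to 6.31%, 5.33% and 2.30% of their level in microglia-like cells in Lyz2-cre mice (naive, 1 h, 3 h) and to 10.2%, 5.45% and 2.80% in fl/fl mice. Ptgs1 stood at 4.37%, 5.17% and 1.98% of its own microglia-like level in Lyz2-cre and at 10.4%, 6.51% and 2.15% in fl/fl mice, and Hpgds and Ltc4s at 1.32% to 11.2%. In neutrophil-like cells the markers were at 2.86%, 4.35% and 2.66% in Lyz2-cre and at 9.16%, 9.15% and 1.94% in fl/fl mice, with Ptgs1 at 7.52%, 7.21% and 3.04%, and at 18.2%, 10.1% and 2.94%. B-cell-like cells held 1.46% to 6.13% for Ptgs1 and 1.13% to 7.35% for the markers. At 3 h against naive the markers, Ptgs1, Hpgds and Ltc4s were all lower in both blood-derived classes of both genotypes, but in neutrophil-like cells of Lyz2-cre mice the markers barely differed (2.66% at 3 h, 2.86% in naive brains) while Ptgs1 was at 3.04% and 7.52% and Ltc4s at 2.47% and 3.96%. Ptgs1 was above the markers in neutrophil-like cells of all 6 libraries. The part of microglial transcripts in these falls was not tested. With no cells removed as doublets, the 3 h calls ended in monocyte-like cells for Ptgs1 (-0.90, adjusted p = 0.212), Hpgds (-0.52, 0.108) and Ltc4s (-0.62, 0.405), and in neutrophil-like cells Ptgs1 was at -0.35 (0.349), Hpgds at 0.41 (0.309) and Ltc4s at 0.22 (0.656). Tbxas1 kept a higher share in monocyte-like cells, 8.05% to 16.9%, than the markers in all 6 libraries. The same held in neutrophil-like cells, where Tbxas1 was at 5.69% to 17.9%.

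**Figure D5:**
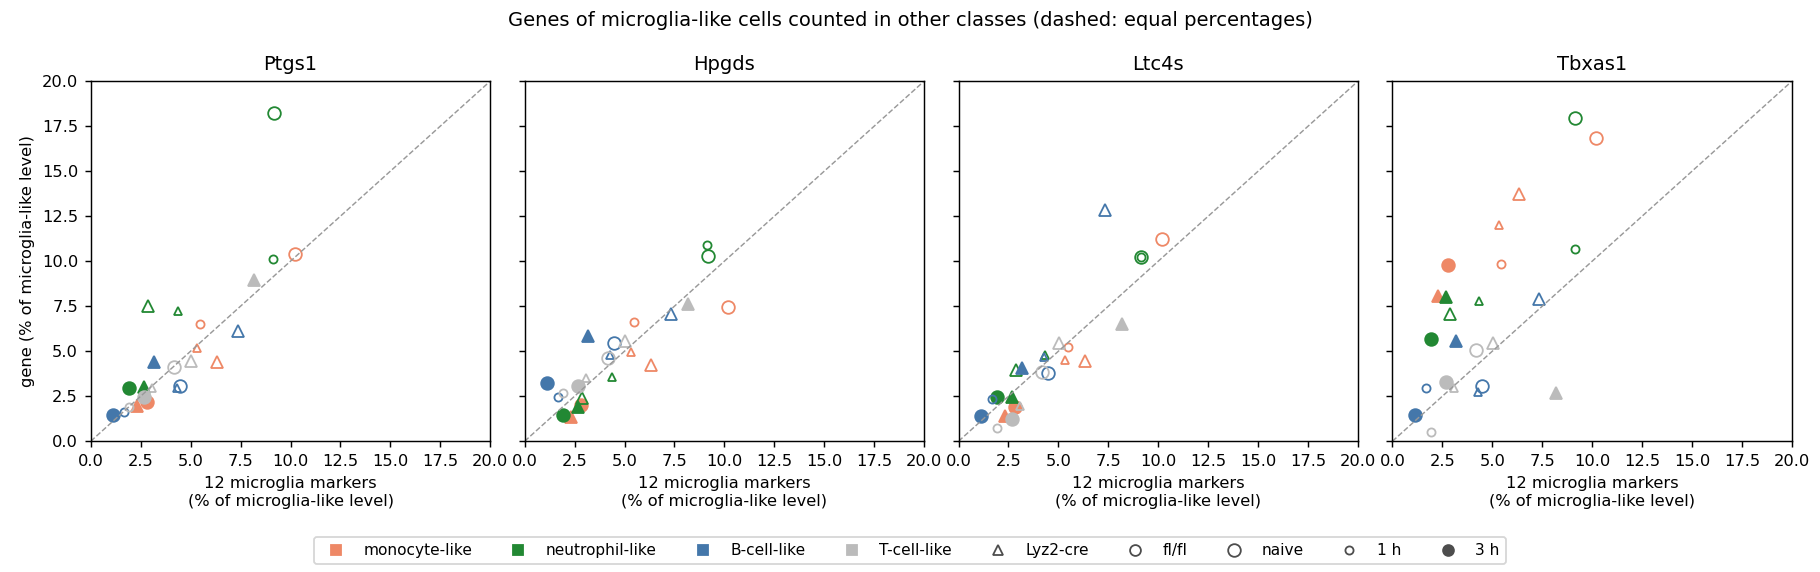
Level of Ptgs1, Hpgds, Ltc4s and Tbxas1 in monocyte-like, neutrophil-like, B-cell-like and T-cell-like cells, as a percentage of their microglia-like level (vertical axis), against the same percentage for 12 summed microglia markers (horizontal axis), 1 point a class and library (triangles Lyz2-cre, circles fl/fl; filled points 3 h). Many points of Ptgs1, Hpgds and Ltc4s lie near the dashed line of equal percentages, and the 6 neutrophil-like points of Ptgs1 lie above it. For Tbxas1 the monocyte-like points (8.05% to 16.9%) and the neutrophil-like points (5.69% to 17.9%) lie above it.

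Whether the 3 h effect differed between classes was tested as an interaction of class and time with the library as a block. Between microglia-like and monocyte-like cells it differed for 7 of 10 members, beside 21.4% of genes (11.3% higher and 10.1% lower in microglia-like cells), and between microglia-like and neutrophil-like cells for 6 of 10, beside 15.6% (5.81% and 9.84%). For Ptgs2 the effect was 4.22 ± 0.34 larger (log2) in microglia-like than in monocyte-like cells and exceeded that of neutrophil-like cells by 4.84 ± 0.32 (adjusted p = 3.71e-32 and 2.25e-47). Alox5ap went the other way, by -0.79 ± 0.15 and -1.31 ± 0.28 (3.56e-06 and 4.68e-05), lower at 3 h in microglia-like cells and higher in the others. Without the Lyz2-cre naive library the difference of Alox5ap from monocyte-like cells did not pass (adjusted p = 0.130), nor without the fl/fl naive library (0.0675). Between monocyte-like and neutrophil-like cells 2 of 9 differed, beside 19.3% (7.42% higher and 11.9% lower), Alox5 (-1.996 ± 0.38, 0.00018) and Lta4h (1.93 ± 0.38, 0.00162). With the largest cluster alone standing for each blood-derived class, the calls for Alox5 (1.20, adjusted p = 0.310, and -1.57, 0.178), Lta4h (-0.60, 0.788, and 0.019, 1), Ptges3 (-0.54, 0.0515) and Alox5ap against monocyte-like cells (-0.55, 0.0816) ended. In the 2 fits with microglia-like cells edgeR's prior degrees of freedom were infinite. The p-values of these fits thus take the spread as known and say more of the counts than of the pools. Without doublet removal the differences of Ptgs1 (-0.21), Hpgds (-0.60) and Ltc4s (-0.34) from neutrophil-like cells changed sign and did not pass.

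The genes around these enzymes were counted in 6 lists of the pathway. In microglia-like cells at 3 h, where 24.4% of all genes were higher and 23.2% lower, 1 of 16 tested genes of arachidonate release and uptake was higher and 7 lower (median -0.24, beside -0.02 over all genes). Lower were the lipases Abhd6 (-0.74 ± 0.08, adjusted p = 7.09e-05), Pla2g16 (-0.61 ± 0.14, 0.00641) and Abhd12 (-0.53 ± 0.09, 0.00115). The higher one was Pla2g7, the plasma form of the platelet-activating factor acetylhydrolase, whose level in microglia-like cells stayed at 0.393 to 2.17 CPM, against 159 to 568 CPM in neutrophil-like cells. Of 6 other prostanoid synthases tested, 0 were higher and 3 lower, Cbr3 (-0.45 ± 0.11, 0.00702) among them. Of 9 further lipoxygenases and partners, 3 were higher (Aloxe3 2.06 ± 0.39, Mgst1 1.82 ± 0.60, Mapkapk2 0.97 ± 0.12) and 2 lower, with Gpx1, a peroxidase, at -0.78 ± 0.11. Of these, Aloxe3 stayed at 0.322 to 1.78 CPM and Mgst1 at 0.143 to 1.28 CPM in microglia-like cells, and Mgst1 was at 338 to 936 CPM in neutrophil-like cells. Of 9 genes of transport and breakdown, 1 was higher and 5 lower, led by the exporter Abcc4 (-0.85 ± 0.20) and by Hpgd (-0.67 ± 0.08), which inactivates prostaglandins. Of 4 leukotriene and oxylipin receptors tested, 2 were lower, Cysltr1 (-0.56 ± 0.11), a receptor of cysteinyl leukotrienes, and Cmklr1.

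The prostaglandin E2 receptor Ptger4 followed Ptgs2 in microglia-like cells. It was at 0.984, 2.70 and 18.0 CPM in Lyz2-cre mice (naive, 1 h, 3 h) and at 2.04, 6.32 and 44.3 CPM in fl/fl mice. It rose by 4.42 ± 0.15 at 3 h (adjusted p = 8.42e-08) and was lower in Lyz2-cre than in fl/fl mice by -1.30 ± 0.12 (0.00271), the one gene of the 6 lists that differed between genotypes in this class. Ptger2, the other receptor that raises cAMP, also passed as higher at 3 h but reached 0.545 CPM in Lyz2-cre and 0.723 CPM in fl/fl mice, and Ptger3 was lower (-0.72 ± 0.15, 0.00373). In monocyte-like cells Ptger4 had the opposite course, at 39.5, 26.6 and 6.32 CPM in Lyz2-cre and at 37.3, 25.9 and 14.7 CPM in fl/fl mice (-1.80 ± 0.31 at 3 h, 0.00146). There Ptgir, the prostacyclin receptor, fell by 2.01 (SE 0.25, adjusted p = 0.000186) and Ptger2 rose by 1.97 ± 0.40 (0.00416).

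In monocyte-like cells at 3 h, where 14.7% of all genes were higher and 13.2% lower, 3 of 13 tested genes of arachidonate release were higher and 6 lower (median -0.55), and Pla2g7 rose by 1.06 ± 0.19 (adjusted p = 0.00198). Of 5 other prostanoid synthases 1 was higher and 2 lower, and of 8 genes of transport and breakdown 2 were lower, with Hpgd at -1.28 ± 0.15 (0.000146). Fpr2, a receptor of formyl peptides and lipoxin A4, rose by 1.28 ± 0.24 (0.00217). In neutrophil-like cells, where 18.1% of all genes were higher and 11.6% lower, 1 of 10 genes of release was higher (Pla2g7, 1.92 ± 0.31, 0.00109) and 5 lower (median -0.78, beside -0.06 over all genes). Cbr3, a carbonyl reductase, rose there by 4.81 ± 0.86 (0.00165), whereas it fell in microglia-like cells. The size of this rise rests on a naive level near the floor in neutrophil-like cells. Cbr3 was there at 0 CPM in Lyz2-cre and 1.59 CPM in fl/fl mice, against 12.4 CPM at 3 h in both. Mapkapk2, a kinase that phosphorylates 5-lipoxygenase, rose by 1.88 ± 0.24 (0.000199), and 0 of 4 leukotriene and oxylipin receptors changed with edgeR.

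The genes most like each member were taken from Pearson's correlation of log levels over 53 sums of a class and a library, which share libraries and classes. For Ptgs2 they were Slc7a11, a cystine transporter (r = 0.914), Ndel1 (0.889) and the cytokine gene Osm (0.874). Ptges3 stood nearest to Hsp90ab1 (0.924), Cacybp (0.923) and Hspd1 (0.914), 2 of which encode heat shock proteins. Ptgs1 stood nearest to the microglial gene Tmem119 (0.959), Ltc4s to C1qc (0.967), Hpgds to Slco2b1 (0.961), Alox5ap to Csf2ra (0.949), Tbxas1 to Hexa (0.933), Alox5 to Hk3 (0.858) and Lta4h to 1700020L24Rik (0.857). Over the 6 microglia-like sums alone, the nearest to Ptgs2 were Tgm2 (0.9996), Slc7a11 (0.9988), Luzp1 (0.9986), Ndel1 (0.9984) and Kdr (0.9981), which hardly differ. Of these, Slc7a11 was at 2.82, 7.30 and 97.7 CPM in Lyz2-cre mice (naive, 1 h, 3 h) and at 3.97, 13.04 and 148 CPM in fl/fl mice.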

How the data were processed

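The deposited matrices hold raw UMI counts per gene and barcode, which the authors made with Cell Ranger 3.0.2 on mm10, per the submitters' processing notes; filtering before deposit is not given in the sources used here. A barcode was kept (50634 of them) if it held 300 genes or more and mitochondrial UMIs made up 10% or less. Doublets were removed by Scrublet score, 0.8% for each 1000 barcodes of a library (3557 cells), since its automatic threshold marked 607. Cells were clustered with scanpy 1.11.5 (2000 variable genes without the 10 members, 30 components, 15 neighbours, Leiden resolution 1). A cluster was named "-like" from at least 3 markers detected in at least 10% of its cells. UMI counts were summed per class and library (at least 20 cells) and tested with edgeR 4.0.16 (TMM factors, robust quasi-likelihood fit, low counts filtered); library totals were 35479437 to 48478866 UMIs. CPM are UMIs per 1000000 UMIs of the class. DESeq2 1.42.0, other scalings, filters, doublet handling and clusterings, and each library left out were alternatives. Fitting the largest cluster of a class alone was chosen after seeing the data. The fits were first tested on counts simulated from these libraries with known changes. Promoter windows come from RefSeq, and gene positions and exons from the GRCm38 annotation. Exon numbers are those of the first annotated transcript. From each list, up to 4 genes with the largest changes among those that passed are named per comparison; likeness ranks genes with a mean of at least 5 CPM. The members and lists were chosen with earlier results of these data known. Intervals cover counting error only.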

Additional observations from a re-analysis of the deposited data

Results flagged for a closer look

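The 3 h effects below differed between classes in the interaction test of class and time (log2, edgeR, adjusted over all genes tested in the pair). Against monocyte-like cells, the effect in microglia-like cells was higher for Ptgs2 (4.22 ± 0.34), Ltc4s (1.91 ± 0.25, adjusted p = 8.23e-13), Alox5 (1.83 ± 0.38, 1.92e-05), Hpgds (1.58 ± 0.24, 1.45e-09) and Ptgs1 (1.47 ± 0.23, 9.04e-09), and lower for Alox5ap (-0.79 ± 0.15) and Ptges3 (-0.43 ± 0.17, 0.0480). Against neutrophil-like cells, it was higher for Ptgs2 (4.84 ± 0.32), Ptgs1 (1.60 ± 0.30, 3.14e-06), Lta4h (1.46 ± 0.27, 3.65e-06), Hpgds (1.26 ± 0.33, 0.00191) and Ltc4s (1.01 ± 0.33, 0.0167), and lower for Alox5ap (-1.31 ± 0.28). Between monocyte-like and neutrophil-like cells it was lower for Alox5 (-1.996 ± 0.38) and higher for Lta4h (1.93 ± 0.38). Without doublet removal the differences from neutrophil-like cells changed sign for Ptgs1 (-0.21), Hpgds (-0.60) and Ltc4s (-0.34), and did not pass. In the fits with microglia-like cells edgeR's prior degrees of freedom were infinite. Their p-values thus say more of the counts than of the pools. The microglia markers counted in the blood-derived classes were lower at 3 h as well, though in neutrophil-like cells of Lyz2-cre mice by little (2.66% at 3 h and 2.86% in naive brains of their microglia-like level); their part was not tested. In the largest blood-derived cluster alone the calls ended for Alox5 (1.20, adjusted p = 0.310, over monocyte-like cells and -1.57, 0.178, between the blood-derived classes), Lta4h (-0.60, 0.788, and 0.019, 1), Ptges3 (-0.54, 0.0515) and Alox5ap over monocyte-like cells (-0.55, 0.0816). The direction for Ptgs2 was the same in both genotypes, whose 3 h levels were 30.1 CPM in Lyz2-cre and 54.4 CPM in fl/fl mice in microglia-like cells.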

How the results depend on the processing

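No paired analysis was possible because the labels give no replicate numbers that could pair the groups, each of 1 library (the library as a block joined classes of cells within a library). Of the members' log2 fold changes under alternatives other than leaving out a library, 1551 kept direction and side of the threshold, 81 lost the threshold, 35 gained it, 48 changed sign with no call and 15 reversed with a call. With 1 library left out, these numbers were 862, 70, 29, 56 and 1. The rise of Ptgs2 in microglia-like cells at 3 h kept its call under DESeq2, no doublet removal, the stricter cell filter (1000 genes, 5% mitochondrial UMIs), resolution 0.5, members kept for clustering and S100a8 and S100a9 cells left out, at 5.83 to 5.86. In the fits with 1 library left out, a group is lost and the other libraries set the spread.

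Reversed at 3 h against naive in neutrophil-like cells were Ptgs2 (-0.41) and Lta4h (0.17) in the largest cluster, Ptges without the Lyz2-cre naive library (2.93, with -5.78 without the Lyz2-cre 3 h library at the other end), Hpgds (0.41), Ltc4s (0.22), Abhd12 (0.20) and Hpgd (0.087) without doublet removal, and Hpgd with the stricter filter (0.45). In monocyte-like cells Cyp4f13 reversed in the largest cluster (0.091). At 3 h against 1 h in neutrophil-like cells Ptgs2 (-0.18) and Lta4h (0.18) reversed in the largest cluster and Hpgds without doublet removal (0.20). For the difference between microglia-like and neutrophil-like cells, Ptgs1 (-0.21), Hpgds (-0.60) and Ltc4s (-0.34) reversed without doublet removal and Lta4h in the largest cluster (-0.60). Levels reversed for Lta4h in the largest cluster (0.071 for microglia-like and 1.14 for monocyte-like over neutrophil-like cells) and, without scaling factors, for Hpgds (0.0063) and Tbxas1 (0.38). The cause was not tested.

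Members called moved by over 1.5 times as follows. In microglia-like cells at 1 h it was 5 with no filter on low counts (main 3). In monocyte-like cells at 1 h it was 1 with the non-robust fit, no doublet removal, the stricter filter, resolution 0.5 and members kept, and 0 in the largest cluster (main 2), at 3 h it was 5 without doublet removal and 5 in the largest cluster (main 8), and at 3 h against 1 h it was 2 without doublet removal (main 6). In neutrophil-like cells at 3 h it was 5 with DESeq2, 4 without doublet removal, 3 with the stricter filter and 2 in the largest cluster (main 8), and at 3 h against 1 h it was 3 and 2 (main 6). For the differences it was 4 (microglia-like and monocyte-like, main 7), 3 (microglia-like and neutrophil-like, main 6) and 7 (monocyte-like and neutrophil-like, main 2) without doublet removal, the last 0 in the largest cluster.

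With each library left out in turn, members called ranged from 2 to 7 (microglia-like, 1 h), 3 to 7 (3 h), 7 to 8 (3 h against 1 h) and 0 to 1 (genotype); in monocyte-like cells from 0 to 2, 6 to 8, 3 to 7 and 0 to 0; in neutrophil-like cells from 0 to 1, 2 to 9, 5 to 6 and 0 to 3; for the 3 level comparisons from 6 to 9, 9 to 9 and 8 to 9; and for the 3 differences from 5 to 7, 2 to 6 and 2 to 3.

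Counts over all genes moved with DESeq2 to 2086 (microglia-like 1 h, main 3430), 128 (genotype, main 60), 1291 and 759 (monocyte-like 3 h and 3 h against 1 h, main 2492 and 1808), 1387 and 1094 (neutrophil-like, main 2283 and 2013) and 1020, 1025 and 827 (the 3 differences, main 2733, 1967 and 1815). With no filter on low counts the genotype counts were 291, 57 and 32 (main 60, 6 and 2), and the 1 h counts 623 (monocyte-like) and 208 (neutrophil-like; main 201 and 76). In the largest cluster the counts were 109 and 1613 (monocyte-like 1 h and 3 h), 137, 1061 and 766 (neutrophil-like 1 h, 3 h and 3 h against 1 h) and 1640, 907 and 456 (differences). Other moves were 36 (non-robust, microglia-like genotype), 10 and 118 (no doublet removal, monocyte-like genotype and neutrophil-like 1 h), 27 (no scaling factors, neutrophil-like 1 h), and 1478, 8 and 991 (stricter filter, neutrophil-like 3 h and genotype, and the difference to microglia-like cells). With no scaling factors the median of all genes shifted by -0.29 in neutrophil-like and -0.20 in monocyte-like cells at 3 h and by 1.17 for the level of microglia-like over neutrophil-like cells. Low UMI totals limit Ptges in every class.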

Other observations

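Cells with at least 4 of 9 basophil and mast cell markers numbered 19, of which 18 lay in the progenitor-like class and 11 in the Lyz2-cre 1 h library. They held Alox5 at 232 CPM and Alox5ap at 2473 CPM (31 and 330 UMIs). With so few cells, mostly from 1 library, no comparison was made.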
